A study of Mus musculus with 8 samples.

Results

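Hox genes encode homeodomain transcription factors and lie in 4 clusters, HoxA, HoxB, HoxC and HoxD. Here they were measured in 3 mouse fibroblast lines on 8 oligonucleotide arrays. Members were chosen by name: a row counted where its RefSeq transcript maps to a symbol made of Hox, a cluster letter and a number. This gave 37 of the 22523 rows that are not controls, and they covered 35 of the 39 Hox genes in the RefSeq table. Hoxa10 and Hoxb3 each had 2 rows with identical values, which were counted once. Hoxa6, Hoxb7, Hoxc11 and Hoxc12 were not analysed here.

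All 3 lines descend from fetal fibroblasts that lack p53. Ind-8 (3 arrays) carries a wild-type mouse p53 cDNA behind a modified human metallothionein promoter, so that zinc turns p53 on. Con-3 (3 arrays) is p53-null and is described in the sample labels as the congenic parent of Ind-8 and in the study's methods as its vector control. tI-3 (2 arrays) was derived from Ind-8 and also expresses type II IMP dehydrogenase constitutively from a transgene. Every culture had spent 48 hours in medium with 65 µM ZnCl2, 10% dialyzed fetal bovine serum and 5 µg/ml puromycin, and tI-3 medium also held G418. The arrays of a line are independent preparations of cells. Each line is 1 clone, so the effect of a transgene and the history of a clone cannot be told apart, nor can the tI-3 line and its G418. The comparison of Ind-8 with Con-3 asks what differs with p53 on against absent, and that of Ind-8 with tI-3 what differs when the dehydrogenase is added to induced p53.

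Hox genes are known for setting positional identity along the body axis and along the limb, and within a cluster their order on the chromosome follows the order in which they are used. Low-numbered paralogue groups act toward the head and the base of a limb, and high-numbered groups toward the tail, the genital tubercle and the far end of the limb. Fibroblasts in culture are known to keep much of the Hox pattern of the site they were taken from.

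Values are log2 hybridization signals as deposited, with array medians from 6.12 to 6.19. A row was called above background on an array where it passed the 95th percentile of the 36 rows of olfactory receptor genes there, genes that fibroblasts are not known to use. That level was 4.88, 4.93 and 5.11 on the Ind-8 arrays, 4.92, 5.08 and 5.24 on the Con-3 arrays, and 5.18 and 5.38 on the tI-3 arrays. The arrays also differed in a technical measure: the mean of 14 hybridization-control rows was 9.04, 8.98 and 9.03 in Ind-8, 9.05, 9.16 and 9.62 in Con-3, and 9.43 and 9.71 in tI-3. Con-3 replicate 3 and both tI-3 arrays were thus high in these controls and all Ind-8 arrays low. Dim rows read higher on the same 3 arrays, where the first quartile of all rows was 4.38, 4.39 and 4.43, against 4.19 to 4.27 on the other arrays. The part of this difference in the results below was not tested beyond a fit that holds the control level constant.

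The labels were checked first. Trp53, the gene of p53, measured 5.68, 5.87 and 5.80 in Ind-8, 5.21, 5.29 and 5.27 in Con-3, and 5.60 and 5.69 in tI-3. Its Con-3 arrays were the lowest and did not overlap those of either line that carries the cDNA. The row was above background on all 8 arrays, those of the p53-null Con-3 included. Ind-8 exceeded Con-3 by 0.53 (1.45-fold, adjusted p = 0.00192 by limma), and tI-3 exceeded Con-3 by 0.39 (1.31-fold, adjusted p = 0.0144). The latter call ended without tI-3 replicate 2 (0.34) and with the control level, described above, held constant (0.38). Cdkn1a, the p53 target that encodes the cell cycle inhibitor p21, measured 9.70, 9.70 and 9.59 in Ind-8, 5.73, 5.81 and 6.03 in Con-3, and 7.55 and 7.33 in tI-3. The lines were well separated, with tI-3 between the other lines. The Impdh2 row, for type II IMP dehydrogenase, measured 12.16, 12.19 and 12.22 in Ind-8, 12.51, 12.56 and 12.53 in Con-3, and 12.34 and 12.38 in tI-3. It was thus not highest in the line that carries the transgene, and whether its probes cover the transgene's transcript is not given in the sources used here.

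Fibroblast markers were largely present. Of 17 distinct rows for 16 listed genes, 14 were above background on all 8 arrays, and the brightest signal was that of Vim, which encodes the intermediate filament vimentin. Signals of different probe sets do not rank transcripts by abundance, so the brightest row of a list says which signal weighs most in its sum. The rows of Thy1, Lum and Fap were at background on all 8. The log2 of the summed fibroblast signal was 15.89, 15.97 and 15.97 in Ind-8, 15.59, 15.70 and 15.72 in Con-3, and 15.60 and 15.46 in tI-3. Of 7 epithelial markers, Krt19 was above background on all 8 arrays and Epcam, Cdh1, Krt14, Krt8 and Krt18 on none, with sums of 10.24, 10.58 and 10.60 in Ind-8, 9.38, 9.98 and 9.86 in Con-3, and 9.59 and 9.60 in tI-3. Kdr had the brightest signal of the 5 endothelial markers, of which Pecam1, Cdh5, Tek and Emcn were at background, with sums of 6.93, 6.81 and 6.91 in Ind-8, 7.07, 7.08 and 7.16 in Con-3, and 7.32 and 7.41 in tI-3. Of 3 blood markers measured, Cd3e was the brightest and Ptprc was at background, with sums of 6.36, 6.42 and 6.36 in Ind-8, 6.42, 6.42 and 6.50 in Con-3, and 6.81 and 6.76 in tI-3. Sox10 had the brightest signal of the neural and glial rows, of which 2 of 7 were above background on all 8 arrays and those of Gfap and Rbfox3 on none. Their sums were 7.44, 7.37 and 7.52 in Ind-8, 7.56, 7.58 and 7.63 in Con-3, and 7.76 and 7.75 in tI-3. Des had the brightest signal of 5 muscle markers, with Myod1, Myog and Actn2 at background and sums of 7.38, 7.19 and 7.35 in Ind-8, 7.21, 7.32 and 7.45 in Con-3, and 7.54 and 7.62 in tI-3. The pluripotency genes Pou5f1, Sox2 and Zfp42 were at background on all 8 arrays, with sums of 5.09, 5.10 and 5.00 in Ind-8, 4.99, 5.17 and 5.02 in Con-3, and 5.42 and 5.05 in tI-3. A lower bulk signal from fewer cells of a kind and from less RNA per cell cannot be told apart here.

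Presence of the Hox genes differed little between the lines. Of 35 genes, 14 were above background on all 8 arrays, 19 on none and 2 on some. The number above background on every array of a line was 15 in Ind-8, 14 in Con-3 and 14 in tI-3. Over all 18172 distinct rows, 59.1% to 63.3% were above background per array, against 14 or 15 of the 35 Hox genes. Paralogue groups 9 to 13 held 9 genes above background on all 8 arrays of 14 measured, and groups 1 to 8 held 5 of 21. The row closest to the limit from above was Hoxc6, by 0.07 on its nearest array, and the closest from below on all 8 was Hoxd3, by -0.17.

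HoxA was the most fully expressed cluster, with Hoxa5, Hoxa7, Hoxa9, Hoxa10, Hoxa11 and Hoxa13 among the genes above background on all 8 arrays. Hoxa2, Hoxa3 and Hoxa4 were near background throughout. HoxD gave 5 of 9 genes on all 8 arrays, namely Hoxd8, Hoxd9, Hoxd10, Hoxd11 and Hoxd13, while Hoxd1, Hoxd3 and Hoxd4 were near background on all 8. Hoxd12 was above background on the 3 Ind-8 arrays and on 2 of the 3 Con-3 arrays, and on neither tI-3 array. HoxC gave Hoxc6 and Hoxc9 of 7 genes, and Hoxc4, Hoxc5, Hoxc8, Hoxc10 and Hoxc13 were near background. HoxB had no gene above background on all 8 arrays: 8 of 9 were above on none, and Hoxb13 passed the level on tI-3 replicate 2 alone. A row near background says that its probes gave no signal beyond that of unused genes, and it does not say that the transcript was absent.

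**Figure D1:**
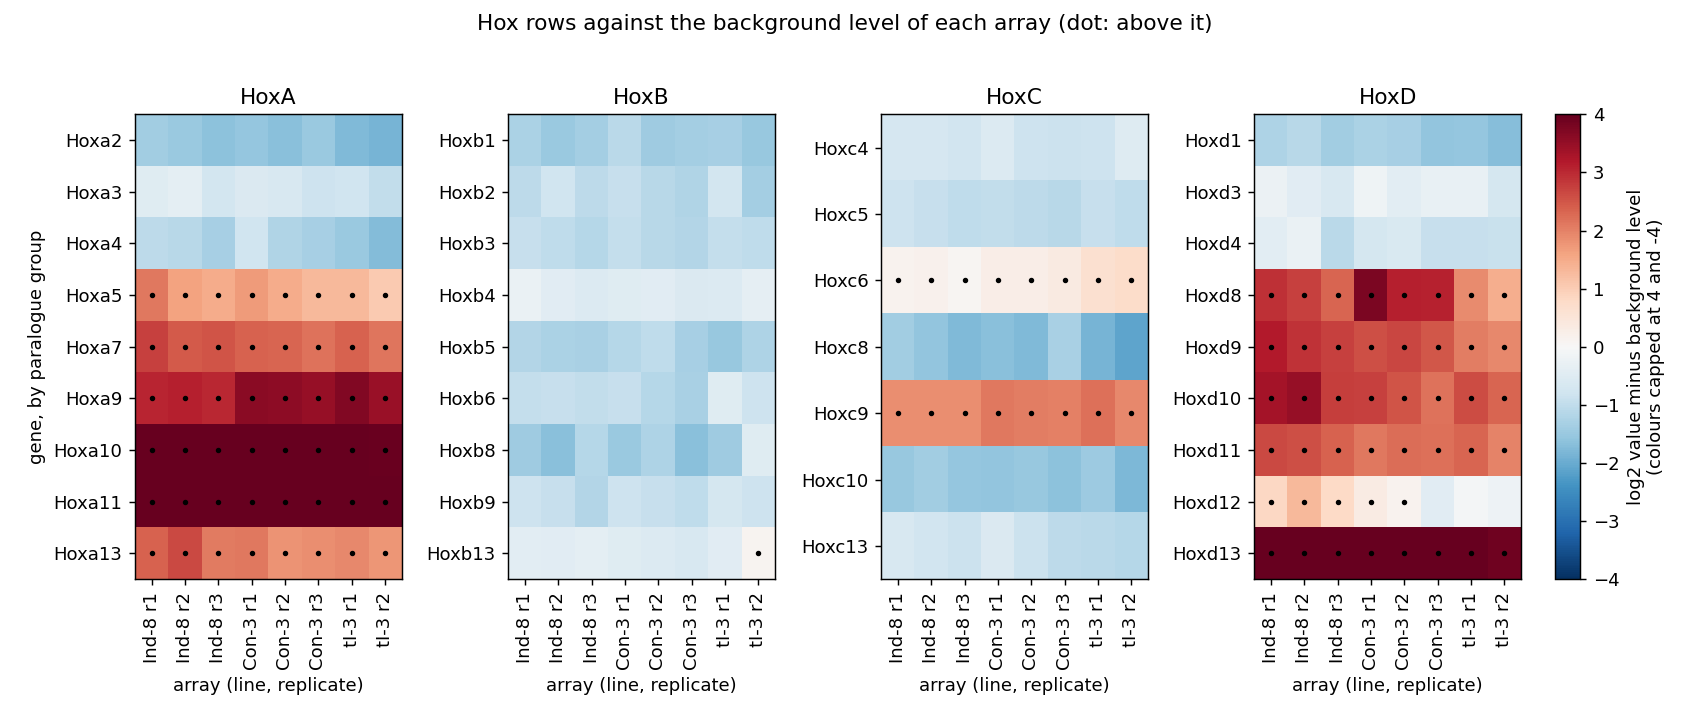
Each cell is the log2 value of a Hox gene (rows, by cluster and paralogue group) on an array (columns) minus that array's background level, with a dot where it lies above that level, for 34 of the 35 genes. Dots fill 13 rows from end to end and lie mostly in HoxA and HoxD, and HoxB holds 1 dot.

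Hoxa11, Hoxa13 and Hoxd13, posterior genes of HoxA and HoxD, were above background on all 8 arrays and called in no comparison. Hoxa11 measured 9.72, 9.72 and 9.81 in Ind-8, 9.63, 9.68 and 9.59 in Con-3, and 9.92 and 9.79 in tI-3. Hoxd13, used in digits and the genital tubercle, measured 9.20, 9.52 and 9.53 in Ind-8, 9.24, 9.33 and 9.33 in Con-3, and 9.40 and 9.27 in tI-3. Hoxa13 measured 7.24, 7.57 and 7.18 in Ind-8, 7.05, 6.86 and 7.11 in Con-3, and 7.09 and 7.16 in tI-3. Arrays of the lines overlapped for Hoxd13 in all 3 comparisons, whereas every Hoxa13 array of Ind-8 was above every array of the other lines, by a difference that was not called (0.32 against Con-3, adjusted p = 0.0789). Hoxa11 arrays of Con-3 lay below those of both other lines without overlap. The log2 differences of the 3 genes lay between -0.10 and 0.32. The 95% interval of Ind-8 minus Con-3 was -0.12 to 0.35 for Hoxd13, -0.07 to 0.30 for Hoxa11 and 0.06 to 0.58 for Hoxa13. That of tI-3 minus Con-3 was 0.01 to 0.43 for Hoxa11 (adjusted p = 0.116). These intervals are not adjusted for the number of rows tested. The last interval of Hoxa11 and that of Hoxa13 leave out 0, yet neither difference passed the adjusted threshold.

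Differences between lines were tested with limma over all 22523 rows, and a row was called at an adjusted p under 0.05. Between Ind-8 and Con-3, 5 of 35 Hox genes (14.3%) were called, against 21.9% of all rows. Of these 2 were higher in Ind-8, where 10.9% of all rows were, and 3 lower, where 11% were. Between Ind-8 and tI-3, 11 Hox genes (31.4%) were called, against 31.1% of all rows. Of those 4 were higher in Ind-8 (15.6% of all rows) and 7 lower (15.5%). Between tI-3 and Con-3, 8 Hox genes (22.9%) were called, against 25.4% of all rows, with 5 higher in tI-3 (10.2% of all rows) and 3 lower (15.1%). An F test over the 3 lines called 12 Hox genes (34.3%), against 41.1% of all rows. In either direction the Hox share was below that of all rows between Ind-8 and Con-3 and between tI-3 and Con-3, and about equal to it between Ind-8 and tI-3. The share lower in Ind-8 than in tI-3 and the share higher in tI-3 than in Con-3 were somewhat above that of all rows, by 1 or 2 genes. The counts are not a result about Hox genes as a group.

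Arrays of the compared lines did not overlap for 14 Hox genes between Ind-8 and Con-3 (38% of all rows), for 22 between Ind-8 and tI-3 (60.3%) and for 16 between tI-3 and Con-3 (51.6%). The median log2 difference of the 35 genes was -0.01, -0.10 and 0.12 in these comparisons, each coded as the first line minus the second, where the median of all rows was -0.06, -0.06 and 0.04. The rank product test, which the study used, called Hoxd8 alone between Ind-8 and Con-3 (3.65% of all rows called) and Hoxd8 alone between tI-3 and Con-3 (2.31% of all rows). Between Ind-8 and tI-3 it called 0 Hox genes (2.02% of all rows), where limma called 11 and 16 had an unadjusted p under 0.05. The 3 comparisons share arrays, so the calls of a gene are not independent of each other.

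These counts differed with signal level. Of the 14 Hox genes above background on all 8 arrays, 4 (28.6%), 6 (42.9%) and 4 (28.6%) were called between Ind-8 and Con-3, Ind-8 and tI-3, and tI-3 and Con-3, where 33.2%, 38.9% and 36% of all rows of that kind were. Of the 19 near background, limma called 0 between Ind-8 and Con-3 (1 at an unadjusted p under 0.05, and 0 by rank product), where 2.5% of such rows were called. It called 3 lower in Ind-8 than in tI-3 (15.8%), where 15.4% of near-background rows were called, 1110 of them lower in Ind-8 and 70 higher. It called 3 higher in tI-3 than in Con-3 (15.8%), where 6.47% of near-background rows were called, 431 of them higher in tI-3 and 65 lower. Dim rows of the whole table therefore read higher in tI-3, the line whose arrays were both high in hybridization controls. With the control level held constant, 1 Hox gene in place of 11 was called between Ind-8 and tI-3, 3 in place of 8 between tI-3 and Con-3, and 6 in place of 12 by the F test. Since every Ind-8 array was low in the controls and every tI-3 array high, line and control level cannot be told apart between them except through Con-3. Without tI-3 replicate 2, 7 Hox genes were called between Ind-8 and tI-3 and 2 between tI-3 and Con-3. The latter count was 5 without Con-3 replicate 1 and 4 without Con-3 replicate 2. The rank product calls of Hoxd8 were also lost with fewer arrays. Between Ind-8 and Con-3 its percent false positive was 0.0458 with all arrays, close to the threshold. There 0 Hox genes were called without Ind-8 replicate 2 or 3 or with any 1 Con-3 array left out. Between tI-3 and Con-3 it was 0.0106 with all arrays, and 0 Hox genes were called with any 1 Con-3 array left out.

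The 12 genes called in at least 1 comparison included Hoxa9 in HoxA, Hoxb3, Hoxb6, Hoxb9 and Hoxb13 in HoxB, Hoxc6 and Hoxc9 in HoxC, and Hoxd8, Hoxd9, Hoxd10 and Hoxd12 in HoxD. Of the 12, 7 were above background on all 8 arrays and 3 near it on all 8. Hoxd8 was called in all 3 comparisons, Hoxd10 in 1 and the other 10 genes in 2. The other 23 Hox genes were called in no comparison. Among those called in none, Hoxb8 had the widest gap, -0.76 between Ind-8 and tI-3 (adjusted p = 0.0726), and its tI-3 arrays differed widely from each other at 3.76 and 4.90, both below background.

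HoxD held the largest difference of the family and 4 called genes, which are neighbours on chromosome 2 apart from Hoxd11, between Hoxd10 and Hoxd12, which was not called. The 250 bases before the start of each are shown because these neighbouring genes differed in opposite directions between the lines. They are RefSeq promoter sequences of mouse build GRCm38.p6, plus strand: chr2:74674763-74675012 for Hoxd12, chr2:74691641-74691890 for Hoxd10, chr2:74697513-74697762 for Hoxd9 and chr2:74704365-74704614 for Hoxd8. Capitals mark matches to 5 motifs searched on both strands.
Hoxd12: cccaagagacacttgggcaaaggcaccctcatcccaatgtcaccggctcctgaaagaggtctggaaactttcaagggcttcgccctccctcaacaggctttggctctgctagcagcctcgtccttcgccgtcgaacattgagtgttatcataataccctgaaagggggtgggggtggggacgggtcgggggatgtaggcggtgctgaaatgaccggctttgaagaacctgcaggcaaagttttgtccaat
Hoxd10: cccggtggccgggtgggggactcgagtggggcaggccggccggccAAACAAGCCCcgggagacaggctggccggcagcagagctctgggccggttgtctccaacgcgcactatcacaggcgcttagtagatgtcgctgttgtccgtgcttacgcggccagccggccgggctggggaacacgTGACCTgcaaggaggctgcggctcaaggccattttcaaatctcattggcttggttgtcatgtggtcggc
Hoxd9: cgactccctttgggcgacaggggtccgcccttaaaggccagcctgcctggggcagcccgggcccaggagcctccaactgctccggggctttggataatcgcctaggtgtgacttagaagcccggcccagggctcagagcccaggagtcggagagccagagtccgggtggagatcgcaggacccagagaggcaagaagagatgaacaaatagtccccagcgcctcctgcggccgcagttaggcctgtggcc
Hoxd8: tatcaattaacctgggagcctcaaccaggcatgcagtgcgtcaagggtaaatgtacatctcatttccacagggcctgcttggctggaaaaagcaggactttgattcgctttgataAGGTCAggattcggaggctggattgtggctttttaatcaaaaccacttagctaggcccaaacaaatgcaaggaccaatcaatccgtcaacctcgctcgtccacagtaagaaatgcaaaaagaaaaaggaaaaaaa
The motifs were TGATNNAT (Pbx-Hox dimers, in 7.66% of the 32536 distinct RefSeq promoters of this length), TGACAG (Meis, 15.8%), TTTATG (Cdx, 10.8%), AGGTCA (nuclear receptors, among them retinoic acid receptors, 14%) and the p53 decamer motif (7.12%). Hoxd8 held 1 match to AGGTCA, which starts 135 bases before the gene's start. Hoxd10 held AGGTCA on the minus strand, 69 bases before the start, and 1 match to the p53 decamer motif, 205 bases before it. The Hoxd9 and Hoxd12 windows held no match to these letters. G+C content was 44.4% in the Hoxd8 window, 65.2% in Hoxd9, 65.6% in Hoxd10 and 55.6% in Hoxd12, where the median promoter had 52.4%. A match describes the sequence and is not evidence of binding.

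Hoxd8, a gene of the trunk and the base of the limb, measured 7.80, 7.67 and 7.42 in Ind-8, 8.69, 8.19 and 8.31 in Con-3, and 7.06 and 6.82 in tI-3. The 3 lines did not overlap in any pair, with Con-3 highest and tI-3 lowest. It was lower in Ind-8 than in Con-3 by a log2 difference of -0.77 ± 0.15 (SE, 1.70-fold, adjusted p = 0.00457), and lower in tI-3 than in Con-3 by -1.46 ± 0.16 (2.75-fold, adjusted p = 0.000212). Both calls held with the control level constant, at -0.81 and -1.37. By construction that fit compares arrays of 1 control level only. The -0.81 sets 3 Ind-8 arrays against 2 Con-3 arrays, all low in the controls. The -1.37 sets 2 tI-3 arrays against 1 Con-3 array, all high. The difference between Ind-8 and tI-3, 0.69 ± 0.16 (1.62-fold, adjusted p = 0.0108), was not called without tI-3 replicate 2 (0.57) or with the control level constant (0.56).

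Hoxd9 measured 8.05, 7.84 and 7.84 in Ind-8, 7.51, 7.76 and 7.72 in Con-3, and 7.21 and 7.31 in tI-3. The tI-3 arrays were the lowest and the Ind-8 arrays the highest, without overlap. Ind-8 exceeded tI-3 by 0.65 ± 0.11 (1.57-fold, adjusted p = 0.00275), a call that ended with the control level constant (0.73). The difference of tI-3 from Con-3, -0.40 ± 0.11 (1.32-fold, adjusted p = 0.0257), lost its call without Con-3 replicate 2 (-0.36), Con-3 replicate 3 (-0.38), tI-3 replicate 1 (-0.36) or tI-3 replicate 2 (-0.45), with the control level constant (-0.46) and after a further quantile normalization (-0.29). Ind-8 minus Con-3 was 0.25 and not called (adjusted p = 0.117).

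Hoxd10, which patterns the hind limb and lumbar region, measured 8.20, 8.43 and 7.88 in Ind-8, 7.66, 7.60 and 7.42 in Con-3, and 7.78 and 7.70 in tI-3. Ind-8 lay above both other lines on every array. The difference from Con-3 was 0.61 ± 0.13 (1.53-fold, adjusted p = 0.00933) and was called in every other limma fit at that threshold. That from tI-3 was 0.43 ± 0.15, just short of the threshold (adjusted p = 0.0527), and it was called without Ind-8 replicate 3 (0.57), with replicate number as a block (0.54), with the dimmest rows left out and with an intensity trend in the prior (both 0.43). It was 0.22 with the control level constant and 0.25 after quantile normalization, not called in either. tI-3 minus Con-3 was 0.18 (adjusted p = 0.414).

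Hoxd12, a gene of the distal limb, measured 5.72, 6.24 and 5.90 in Ind-8, 5.24, 5.21 and 4.79 in Con-3, and 5.09 and 5.18 in tI-3. Ind-8 was above the other lines on every array, and Con-3 and tI-3 overlapped near background. Ind-8 minus Con-3 was 0.87 ± 0.15 in log2 (adjusted p = 0.00287), and 0.73 with the control level constant. Con-3 was above background on 2 of its 3 arrays. Its mean of 5.0807 was not above the mean background level of the Con-3 arrays, 5.0813, so no fold is given. Since tI-3 was below background on both arrays, its difference is a bound set against the background level: Hoxd12 was at least 1.60-fold higher in Ind-8 (adjusted p = 0.00654), a call that ended with the control level constant (0.38). Hoxd11, which lies between Hoxd10 and Hoxd12, measured 7.51, 7.51 and 7.45 in Ind-8, 7.02, 7.32 and 7.43 in Con-3, and 7.52 and 7.38 in tI-3. Ind-8 lay above Con-3 without a call (0.23, adjusted p = 0.182) and overlapped tI-3.

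**Figure D2:**
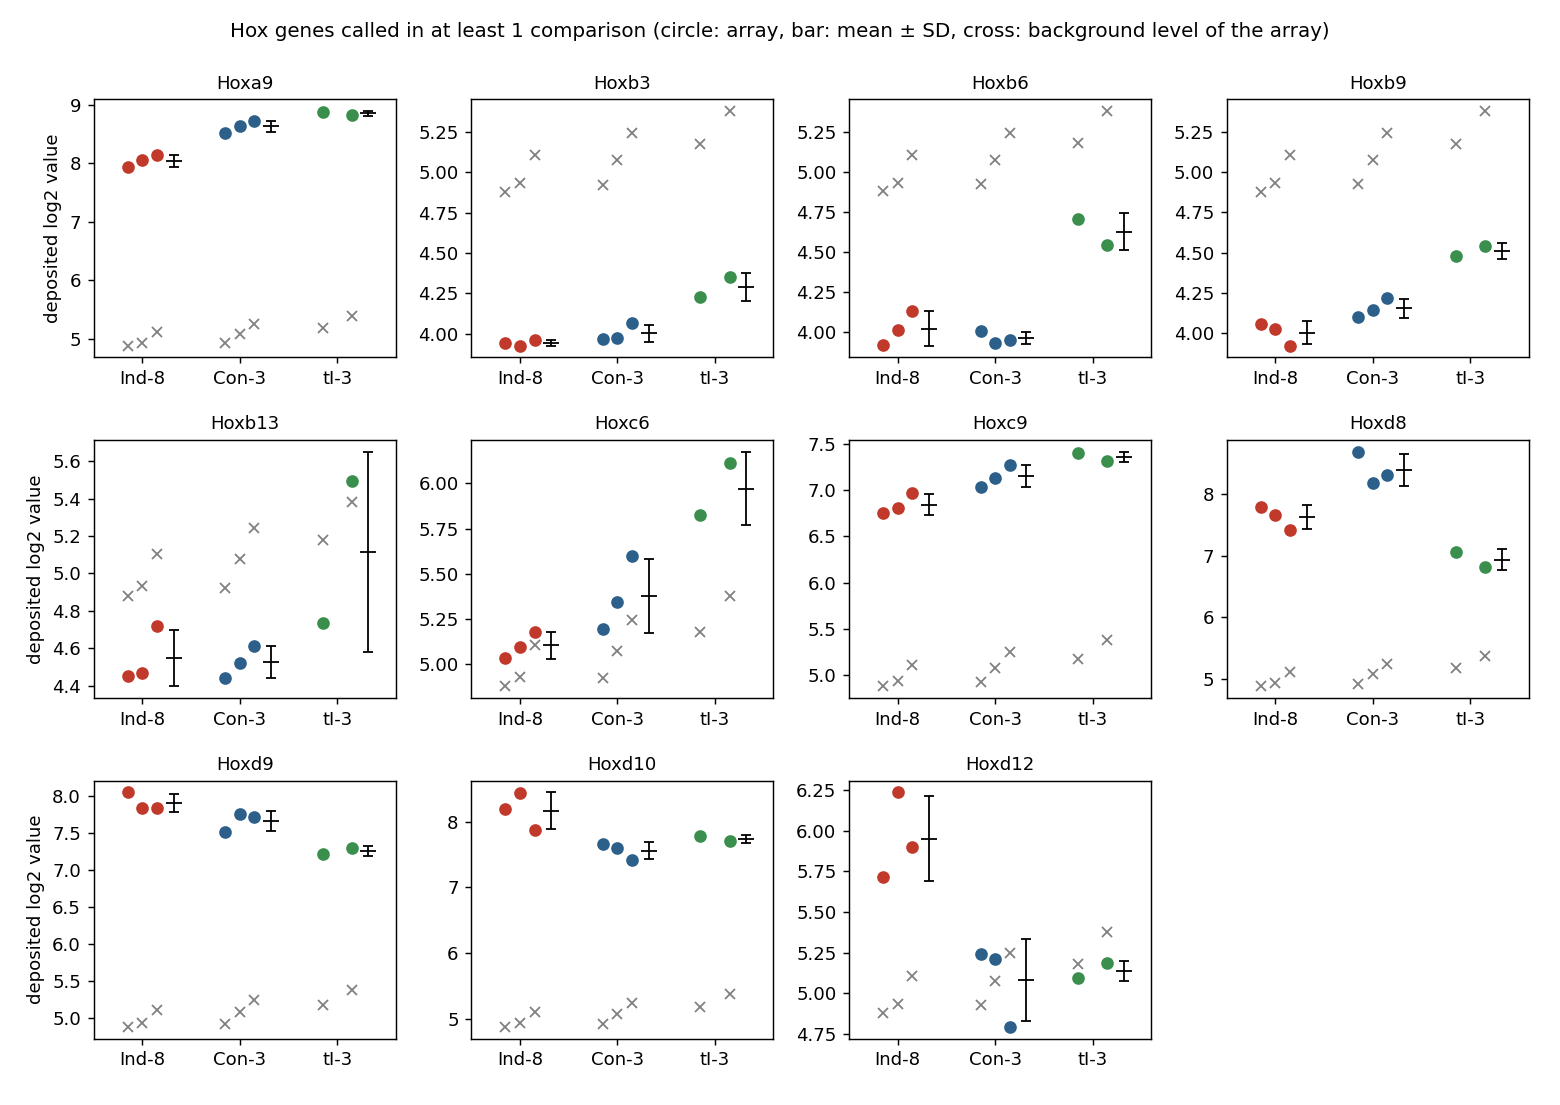
Log2 values of 11 Hox genes called in at least 1 comparison, with a circle per array, a bar for the line mean ± SD (3 arrays in Ind-8 and Con-3, 2 in tI-3) and a cross for the background level of the array. Hoxd8 falls from Con-3 to Ind-8 to tI-3, and the circles of Hoxb3, Hoxb6 and Hoxb9 lie below the crosses on all 8 arrays.

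In HoxA, Hoxa9 was called in both comparisons with Ind-8. Hoxa9, a posterior gene also used in blood progenitors, measured 7.93, 8.05 and 8.14 in Ind-8, 8.52, 8.64 and 8.72 in Con-3, and 8.88 and 8.82 in tI-3. Ind-8 was lowest on every array and tI-3 highest. Hoxa9 was lower in Ind-8 than in Con-3 by -0.59 ± 0.09 (1.5-fold, adjusted p = 0.00162), a call present in every other limma fit at the same threshold. Ind-8 minus tI-3 was -0.81 ± 0.10 (1.75-fold, adjusted p = 0.000526), which was not called with the control level constant (-0.67). tI-3 minus Con-3 was 0.22 and not called (adjusted p = 0.146), except after a further quantile normalization (0.34).

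The expressed HoxA genes Hoxa5, Hoxa7, Hoxa10, Hoxa11 and Hoxa13 were called in no comparison. Hoxa10, for example, measured 8.86, 9.42 and 9.23 in Ind-8, 9.11, 9.44 and 9.43 in Con-3, and 9.48 and 9.34 in tI-3, with overlap between all lines.

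In HoxC, both expressed genes were called, and both were lowest in Ind-8 and highest in tI-3. Hoxc6, a thoracic gene, measured 5.03, 5.10 and 5.18 in Ind-8, 5.19, 5.34 and 5.60 in Con-3, and 5.83 and 6.11 in tI-3. The lines did not overlap, although Ind-8 was barely above background on its arrays. Ind-8 minus tI-3 was -0.87 ± 0.14 (1.82-fold, adjusted p = 0.00152), which was not called with the control level constant (-0.54). tI-3 exceeded Con-3 by 0.59 ± 0.14 (1.51-fold, adjusted p = 0.00952), a call that ended without tI-3 replicate 2 (0.45) and with the control level constant (0.37).

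Hoxc9, used at the thoracic and lumbar levels, measured 6.75, 6.80 and 6.97 in Ind-8, 7.04, 7.13 and 7.27 in Con-3, and 7.40 and 7.32 in tI-3. The order of the lines was that of Hoxc6, again without overlap. Ind-8 minus tI-3 was -0.51 ± 0.11 (1.43-fold, adjusted p = 0.00710), a call that ended with the control level constant (-0.32). Ind-8 minus Con-3 was -0.30 ± 0.10 (1.24-fold, adjusted p = 0.0493) and lay at the threshold. That call was lost without Ind-8 replicate 1 (-0.26), Ind-8 replicate 2 (-0.29), Con-3 replicate 2 (-0.31), Con-3 replicate 3 (-0.24) or either tI-3 array (-0.30), with the control level constant (-0.24), and in 3 fits that left the difference at -0.30: identical rows counted once, an intensity trend in the prior, and the 2 lines fitted alone. Hoxc8, near background on all 8 arrays, was called in neither comparison with tI-3, with adjusted p = 0.707 against Ind-8 and 0.419 against Con-3, and was called in both with the control level constant. In that fit tI-3 is set against Con-3 replicate 3 alone of its line. That array measured 3.95 for Hoxc8, against 3.26 and 3.32 on the other Con-3 arrays.

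The HoxB differences lay among values near background, and no fold is given for them. Hoxb6 measured 3.92, 4.01 and 4.13 in Ind-8, 4.01, 3.93 and 3.95 in Con-3, and 4.71 and 4.54 in tI-3. Both tI-3 arrays stood above the other lines, yet below their own background levels of 5.18 and 5.38. Ind-8 minus tI-3 was -0.60 (adjusted p = 0.00236), which was not called with the control level constant (-0.62), and tI-3 minus Con-3 was 0.66 (adjusted p = 0.00123), which was (0.67). Hoxb9 measured 4.06, 4.03 and 3.92 in Ind-8, 4.10, 4.15 and 4.22 in Con-3, and 4.48 and 4.54 in tI-3. Its tI-3 arrays were again the highest, with Ind-8 minus tI-3 at -0.51 (adjusted p = 0.00373), a call that ended with the control level constant (-0.41), and at -0.32 after quantile normalization. tI-3 minus Con-3 was 0.36 (adjusted p = 0.0199), a call that ended without Con-3 replicate 1 (0.33), Con-3 replicate 2 (0.35), tI-3 replicate 1 (0.39) or tI-3 replicate 2 (0.32), with the control level constant (0.29) and after quantile normalization (0.23).

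Hoxb3 measured 3.94, 3.92 and 3.96 in Ind-8, 3.97, 3.97 and 4.06 in Con-3, and 4.23 and 4.35 in tI-3. The tI-3 arrays were above the others without overlap and below background. Ind-8 minus tI-3 was -0.35 (adjusted p = 0.0187) and lost its call without tI-3 replicate 2 (-0.28), with the control level constant (-0.25) and after quantile normalization (-0.17). tI-3 minus Con-3 was 0.29 (adjusted p = 0.0449) and lost it without Con-3 replicate 1 (0.27), Con-3 replicate 2 (0.27), tI-3 replicate 1 (0.35), tI-3 replicate 2 (0.22) or any 1 Ind-8 array (0.29), with the control level constant (0.22), after quantile normalization (0.18) and with the 2 lines fitted alone (0.29).

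Hoxb13 measured 4.45, 4.47 and 4.72 in Ind-8, 4.44, 4.52 and 4.61 in Con-3, and 4.74 and 5.49 in tI-3. Only tI-3 replicate 2 was above background, and tI-3 replicate 1 was barely above the highest Ind-8 array. The log2 difference of Ind-8 from tI-3 was -0.57 (adjusted p = 0.0429) and tI-3 minus Con-3 was 0.59 (adjusted p = 0.0429), and both rest on that array. The tI-3 mean of 5.11 was below the mean background level of its own arrays, so no fold is given. Without tI-3 replicate 2 the log2 differences were -0.19 and 0.21 and neither was called, and without tI-3 replicate 1 they were -0.95 and 0.97. The call against Ind-8 was also lost without Ind-8 replicate 1 (-0.52), Ind-8 replicate 2 (-0.53), Con-3 replicate 2 or Con-3 replicate 3 (both -0.57), and that of tI-3 against Con-3 without Con-3 replicate 1 (0.55), Con-3 replicate 2 (0.59), Con-3 replicate 3 (0.63) or Ind-8 replicate 1 or 2 (both 0.59). Both calls ended with the control level constant (-0.43 and 0.50), after quantile normalization (-0.38 and 0.48) and with the 2 lines fitted alone. The 4 called HoxB genes were thus all higher in tI-3, as were most called dim rows of the whole table.

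**Figure D3:**
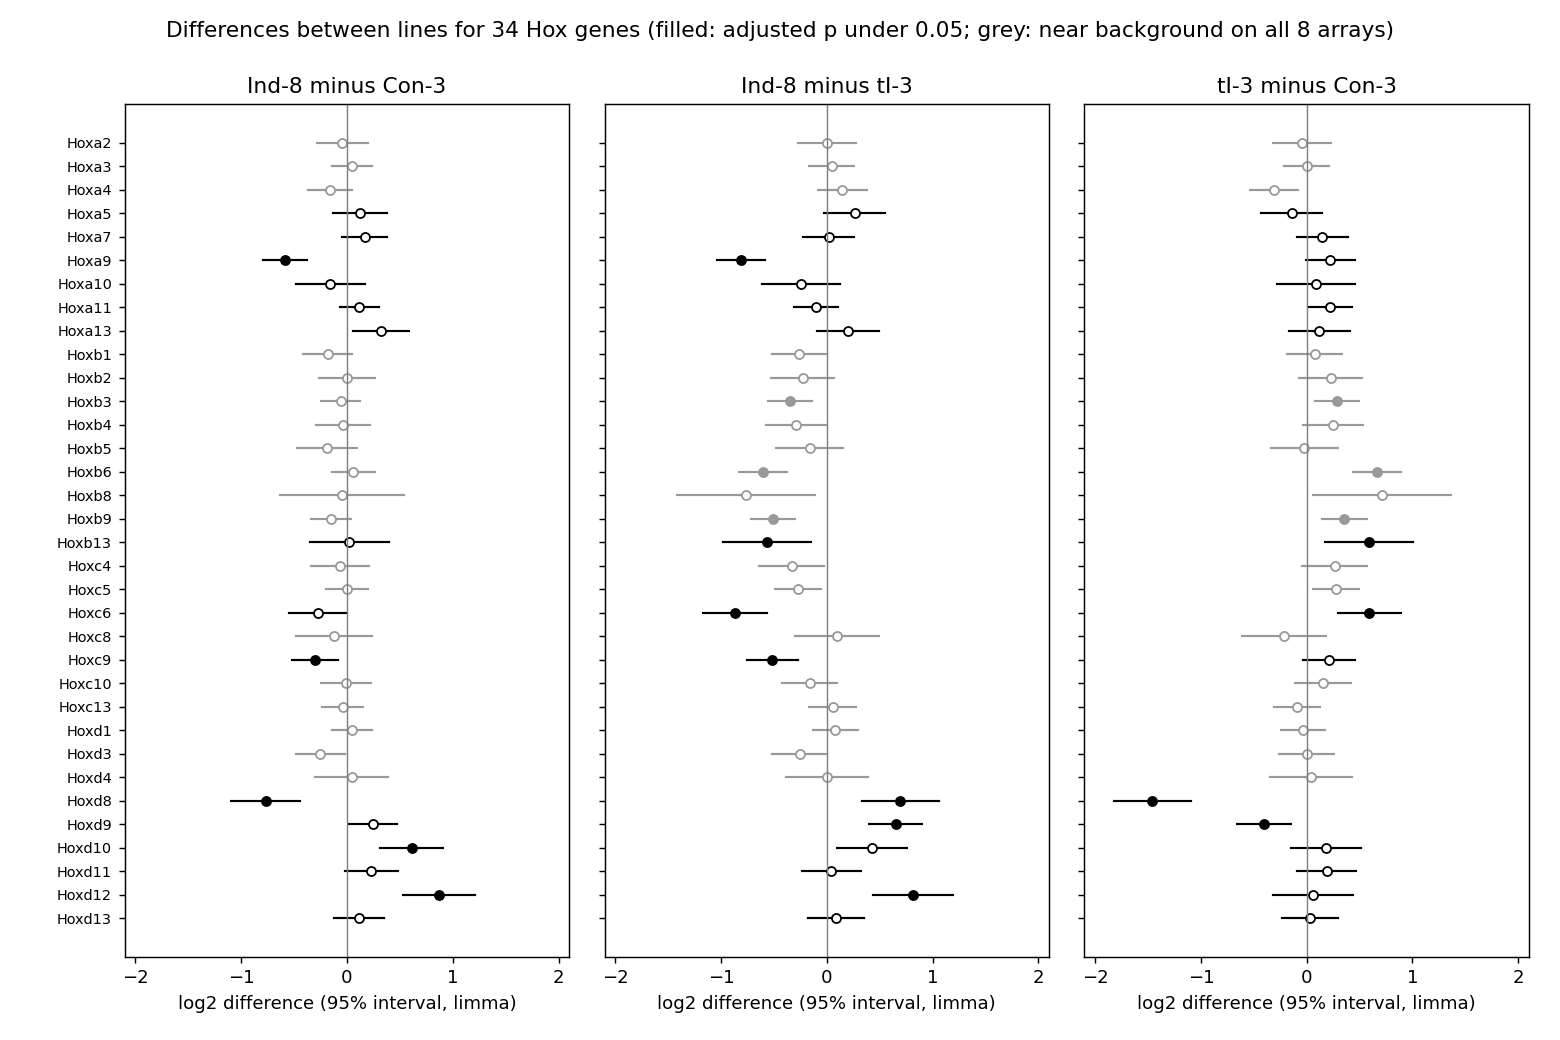
Log2 difference of 34 Hox genes in the 3 comparisons, by cluster and paralogue group, with its 95% interval and with called genes marked. The interval farthest from 0 belongs to Hoxd8 in tI-3 minus Con-3, at -1.82 to -1.10, and most intervals of the uncalled genes cross 0.

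Of 24 called Hox differences, 6 were still called with the control level constant: Hoxa9, Hoxd8, Hoxd10 and Hoxd12 between Ind-8 and Con-3, and Hoxb6 and Hoxd8 between tI-3 and Con-3. Over all alternatives Ind-8 minus Con-3 ran from -0.64 to -0.53 for Hoxa9, from -0.87 to -0.62 for Hoxd8, from 0.48 to 0.76 for Hoxd10 and from 0.73 to 0.99 for Hoxd12. tI-3 minus Con-3 ran from 0.54 to 0.74 for Hoxb6 and from -1.58 to -1.31 for Hoxd8. Those 6 were also the ones that no left-out array and no other limma fit at the same threshold ended. All 11 called differences between Ind-8 and tI-3 lost their call in that fit.

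Some TALE homeodomain proteins, among them those of the Pbx and Meis genes, bind DNA together with Hox proteins. The list of TALE genes also held Tgif1 and Tgif2, and 8 of its 12 distinct rows were above background on all 8 arrays. Pbx4 and Meis2 were at background throughout. Between Ind-8 and Con-3, 2 were higher and 3 lower (median 0.02), between Ind-8 and tI-3 2 were higher and 0 lower (median 0.06, 3 at an unadjusted p under 0.05, and 0 by rank product), and between tI-3 and Con-3 2 were higher and 2 lower (median -0.08). The rows called were 5, 2 and 4 of 12 in these comparisons, where 21.9%, 31.1% and 25.4% of all rows were. Meis1, which marks the base of the limb, measured 5.95, 6.32 and 6.15 in Ind-8, 6.18, 6.43 and 6.13 in Con-3, and 5.39 and 5.23 in tI-3. Ind-8 and Con-3 overlapped, and tI-3 was lower on both arrays, 1 of them below background. tI-3 minus Con-3 was -0.94 ± 0.13 (1.91-fold, adjusted p = 0.000781). Ind-8 minus tI-3 was 0.83 (1.78-fold, adjusted p = 0.00182), and that call ended with the control level constant (0.66). Tgif2, a TALE repressor, measured 6.38, 5.86 and 6.35 in Ind-8, 7.13, 6.97 and 7.06 in Con-3, and 6.52 and 6.70 in tI-3. Con-3 was highest on every array, and Ind-8 minus Con-3 was -0.86 ± 0.14 (1.81-fold, adjusted p = 0.00171). Its relative Tgif1 went the other way, 0.55 higher in Ind-8 than in Con-3 (1.46-fold, adjusted p = 0.00547). Pbx3 measured 6.1, 7.32 and 7.63 in Ind-8, 8.09, 8.03 and 8.0 in Con-3, and 7.72 and 7.76 in tI-3. Ind-8 replicate 1 stood far below its line, and without it Ind-8 minus Con-3 was -0.56 in place of -1.02 ± 0.30 (adjusted p = 0.0348), still called. The call was lost without Con-3 replicate 1 (-1.0), 2 (-1.03) or 3 (-1.04) or either tI-3 array (-1.02), with the control level constant (-1.04) and with the 2 lines fitted alone (-1.02).

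Retinoic acid and a few transcription factors act upstream of Hox genes in embryos. Of 22 genes measured, 8 were above background on all 8 arrays and 8 on none, the latter including Cdx1, Cdx2, Cdx4 and the 3 retinaldehyde dehydrogenases Aldh1a1, Aldh1a2 and Aldh1a3. Between Ind-8 and Con-3, 3 were higher and 2 lower (median -0.01), between Ind-8 and tI-3 1 higher and 4 lower (median -0.08), and between tI-3 and Con-3 4 higher and 1 lower (median 0.03). That is 5 of 22 in each comparison, where 21.9%, 31.1% and 25.4% of all rows were called, so the list did not exceed the whole table by more than 1 gene. Crabp1, which binds retinoic acid in the cytoplasm, measured 3.80, 3.95 and 3.99 in Ind-8, 5.34, 5.30 and 5.72 in Con-3, and 4.20 and 3.75 in tI-3. It was above background in Con-3 and below it in both other lines, so that it was at least 1.39-fold higher in Con-3 than in Ind-8 (adjusted p = 9.57e-05) and at least 1.13-fold higher than in tI-3 (adjusted p = 0.000177). Cyp26b1, an enzyme that breaks down retinoic acid, measured 6.03, 5.99 and 6.43 in Ind-8, 6.07, 5.75 and 6.12 in Con-3, and 6.59 and 7.0 in tI-3. Ind-8 and Con-3 overlapped below tI-3, and tI-3 minus Con-3 was 0.81 ± 0.17 (1.76-fold, adjusted p = 0.00681), not called without tI-3 replicate 2 (0.61) or with the control level constant (0.67). Egr2, a hindbrain regulator of Hox genes that growth factors also induce, measured 6.91, 7.38 and 5.89 in Ind-8, 5.59, 5.25 and 4.93 in Con-3, and 5.49 and 5.00 in tI-3. Ind-8 was highest on every array, and the other lines were above background on 2 of 3 and 1 of 2 arrays. Ind-8 exceeded Con-3 by 1.47 ± 0.32 (2.76-fold, adjusted p = 0.00898).

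Polycomb proteins keep Hox genes silent and Trithorax proteins keep them active. Of 26 Polycomb genes measured, 25 were above background on all 8 arrays. Between Ind-8 and Con-3, 3 were higher and 7 lower (median -0.09), between Ind-8 and tI-3 6 higher and 2 lower (median 0.14), and between tI-3 and Con-3 0 higher and 6 lower (median -0.12, 7 at an unadjusted p under 0.05, and 0 by rank product). The 10, 8 and 6 of 26 stand beside 21.9%, 31.1% and 25.4% of all rows, close to the whole table in both comparisons with tI-3. Among all rows above background on all 8 arrays, as 25 of these were, 33.2%, 38.9% and 36% were called. Pcgf5, a subunit of a Polycomb complex that ubiquitinates histone H2A, measured 9.66, 9.57 and 9.49 in Ind-8, 10.24, 10.24 and 10.27 in Con-3, and 9.50 and 9.53 in tI-3. Con-3 was higher on every array, with Ind-8 minus Con-3 at -0.68 ± 0.08 (1.60-fold, adjusted p = 0.000427) and tI-3 minus Con-3 at -0.73 ± 0.09 (1.66-fold, adjusted p = 0.000425). Ezh2, the main histone methyltransferase of the other Polycomb complex, was lower in Ind-8 than in Con-3 by -0.45 ± 0.11 (1.36-fold, adjusted p = 0.0131). Phf1, a partner of that complex, measured 7.56, 7.97 and 7.51 in Ind-8, 6.85, 7.02 and 6.77 in Con-3, and 7.20 and 6.86 in tI-3. It was highest in Ind-8, by 0.80 ± 0.14 over Con-3 (1.74-fold, adjusted p = 0.00285). All 16 distinct Trithorax and H3K27 demethylase rows were above background on all 8 arrays. Their counts were 0 higher and 4 lower between Ind-8 and Con-3 (median -0.20, 7 at an unadjusted p under 0.05, and 0 by rank product), 1 higher and 2 lower between Ind-8 and tI-3 (median 0.02), and 0 higher and 4 lower between tI-3 and Con-3 (median -0.22, 6 at an unadjusted p under 0.05, and 0 by rank product). These 4, 3 and 4 of 16 were near or below the 21.9%, 31.1% and 25.4% of all rows. They were below the 33.2%, 38.9% and 36% called among all rows above background on all 8 arrays. Psip1, a chromatin protein that helps recruit Trithorax methyltransferases, was lower in Ind-8 than in Con-3 by -0.72 ± 0.09 (1.65-fold, adjusted p = 0.000342).

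Genes inside or beside the clusters were counted to set the Hox values against their neighbourhood. Of 19 measured, 15 were above background on all 8 arrays and Skap1 and Nfe2 on none. Evx2, which lies next to Hoxd13, was above background on all 8 arrays and was called in no comparison. Between Ind-8 and Con-3, 4 were higher and 0 lower (median 0.06, 5 at an unadjusted p under 0.05, and 1 in either direction by rank product), between Ind-8 and tI-3 5 higher and 2 lower (median 0.01), and between tI-3 and Con-3 3 higher and 3 lower (median 0.09). The 4, 7 and 6 of 19 were close to the 21.9%, 31.1% and 25.4% of all rows. Calcoco1, near HoxC, measured 7.79, 8.13 and 7.95 in Ind-8, 6.76, 7.02 and 6.57 in Con-3, and 7.23 and 7.19 in tI-3. It was highest in Ind-8, by 1.18 ± 0.13 over Con-3 (2.26-fold, adjusted p = 0.000208), whereas the HoxC genes Hoxc6 and Hoxc9 had their lowest values there. Snx10, near HoxA, measured 8.70, 8.68 and 8.72 in Ind-8, 8.47, 8.45 and 8.46 in Con-3, and 7.97 and 7.92 in tI-3. The lines did not overlap, and Ind-8 exceeded tI-3 by 0.76 ± 0.09 (1.69-fold, adjusted p = 0.000275).

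Other transcription factors of mesenchymal position were read in the same way. Of 63 distinct rows for 60 genes, 24 were above background on all 8 arrays, among them Pitx1, which marks the hind limb, while the limb genes Tbx4 and Tbx5 were at background. Between Ind-8 and Con-3, 6 were higher and 7 lower (median -0.11), between Ind-8 and tI-3 10 higher and 13 lower (median -0.11), and between tI-3 and Con-3 7 higher and 13 lower (median 0.05). The 13, 23 and 20 of 63 stand beside 21.9%, 31.1% and 25.4% of all rows, and the counts are not a result about the list. Meox1, a somite gene, measured 6.63, 5.87 and 6.60 in Ind-8, 8.12, 7.77 and 8.52 in Con-3, and 5.31 and 5.44 in tI-3. The order was that of Hoxd8, with Con-3 highest, tI-3 lowest and no overlap. Ind-8 minus Con-3 was -1.77 ± 0.22 (3.40-fold, adjusted p = 0.000472) and tI-3 minus Con-3 was -2.76 ± 0.25 (6.76-fold, adjusted p = 6.25e-05). Twist2, a dermal and limb mesenchyme gene, measured 8.19, 8.40 and 8.20 in Ind-8, 9.54, 9.46 and 9.18 in Con-3, and 8.02 and 7.88 in tI-3. It was also highest in Con-3, with Ind-8 minus Con-3 at -1.13 ± 0.11 (2.19-fold, adjusted p = 0.00013).

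Irx3, a gene of the limb base and the neural tube, measured 10.20, 10.45 and 9.65 in Ind-8, 8.83, 8.37 and 7.99 in Con-3, and 8.29 and 7.94 in tI-3. Ind-8 was higher on every array, by 1.70 ± 0.23 over Con-3 (3.26-fold, adjusted p = 0.000775) and by 1.98 ± 0.26 over tI-3 (3.95-fold, adjusted p = 0.00058), the latter not called with the control level constant (1.38). Msx2, which acts under BMP signals at the limb's edge, measured 7.12, 7.18 and 6.71 in Ind-8, 6.31, 6.08 and 6.06 in Con-3, and 5.36 and 5.15 in tI-3. The lines did not overlap, and Ind-8 minus tI-3 was 1.75 ± 0.15 in log2 (adjusted p = 5.51e-05). tI-3 was above background on 1 of 2 arrays. Its mean of 5.25 was below the mean background level of the tI-3 arrays, 5.28, so no fold is given. Dlx5, a homeobox gene of limb and jaw mesenchyme, measured 6.67, 6.59 and 6.88 in Ind-8, 6.88, 6.79 and 7.15 in Con-3, and 5.44 and 5.85 in tI-3. Its tI-3 arrays were far below the other lines, which overlapped, and tI-3 minus Con-3 was -1.30 ± 0.15 (2.45-fold, adjusted p = 0.000288).

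**Figure D4:**
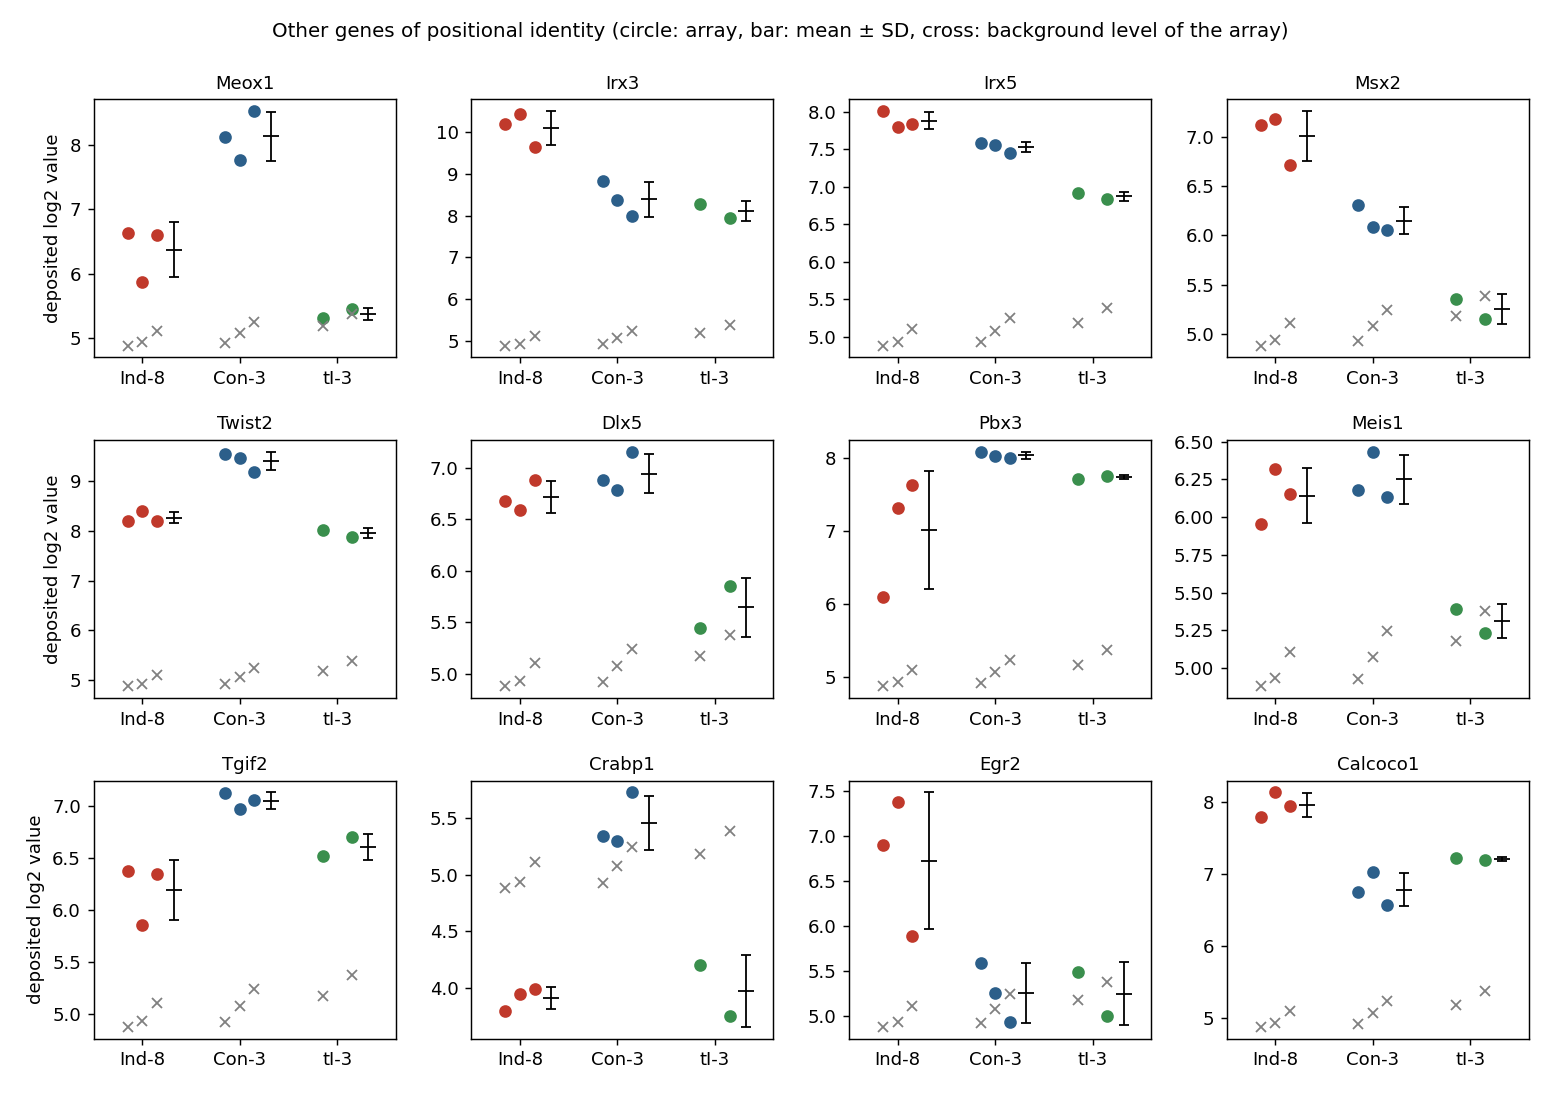
Log2 values of 12 other genes tied to positional identity, with a circle per array, a bar for the line mean ± SD (3 arrays in Ind-8 and Con-3, 2 in tI-3) and a cross for the background level of the array. Meox1 and Twist2 are highest in Con-3, Irx3 and Msx2 highest in Ind-8, and Dlx5 and Meis1 lowest in tI-3.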

How the data were processed

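Total RNA of 8 cultures was hybridized to mouse whole genome arrays. The deposited values are log2 signals that the authors made by robust multi-array averaging with a RefSeq-based chip description file, version 12, which gives 1 row per transcript. Of 22587 rows, 64 controls were set aside and 22523 used. RefSeq accessions matched 18294 (81.2%) to 15653 genes. Values identical to 6 decimals count as 1 profile, which leaves 18172.

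Lines were compared with limma 3.58.1 (R 4.3.3) in 1 fit of all 8 arrays, with Benjamini-Hochberg adjustment over all 22523 rows, two-sided, called at an adjusted p under 0.05. The study's rank product test was re-implemented (100 permutations, percent false positive under 0.05). Other steps used Python 3.11.15, numpy 2.4.6, scipy 1.17.1, pandas 2.3.3 and matplotlib 3.10.9. Both tests were tried on simulated data first. The number of arrays limits the precision. Where 1 line was below background on all its arrays and the other above on all of its own, the fold is a bound: the brighter line's mean against the mean background level of the dimmer line's arrays.

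The Hox members and the gene lists were chosen with earlier results of these data known. Values on every array are given for 11 of the 12 Hox genes called in at least 1 comparison; all counts cover every measured gene. Values of Hoxa10, Hoxa11, Hoxa13, Hoxb8, Hoxd11 and Hoxd13 were added after they were seen. From each other list at most the 5 largest called differences per comparison could be named. Evx2, Pitx1, Tbx4, Tbx5, Col1a2, Pdgfrb, Twist1, Prrx1 and Thy1 were named after their values were seen, as were rows named for lying at or above background. Listed genes not analysed here are Cyp26c1, Pcgf3, Phc3, Rybp, Kdm2b, Kmt2a, Kmt2d, Jazf1, Prac1, Calcoco2, Atp5g1, Hnrnpa1, Hotair, Hottip, Cd68, Hbb-b1 and Nanog. Promoters came from RefSeq (GRCm38.p6), where 21 of the 35 Hox genes had an entry.

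Alternatives were each array left out, the replicate number or the hybridization-control level (high or low) as a block, quantile normalization or median centring, the dimmest 25% of rows left out, identical rows kept once, an intensity trend in the prior, 2 lines in the fit, a minimum log2 difference of 1, the rank product test, a percent false positive under 0.01, and other background levels. For genes of the other lists they were chosen after seeing the data.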

Additional observations from a re-analysis of the deposited data

Results flagged for a closer look

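Con-3 replicate 3 stood apart in a control row outside the Hox measurements. The control row for the 3-prime part of 18S ribosomal RNA measured 11.38 on that array and between 6.59 and 7.67 on the other 7 arrays. Some Hox values of Con-3 replicate 3 also lay outside those of replicates 1 and 2: Hoxc8 was 3.95 against 3.26 and 3.32, Hoxa2 was 3.75 against 3.38 and 3.40, and Hoxd12 was 4.79 against 5.24 and 5.21. The part of the array in the comparisons was tested by leaving it out. That does not test the fit with the control level constant, where tI-3 minus Con-3 rests on this 1 Con-3 array.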

How the results depend on the processing

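Counts of called Hox genes changed by more than 1.5 times under these settings. A minimum log2 difference of 1 gave 0 between Ind-8 and Con-3 (5 without it), 1 between Ind-8 and tI-3 (11), 1 between tI-3 and Con-3 (8) and 2 by the F test (12), since fewer rows can pass. The rank product test in place of limma gave 1, 0 and 1. With the hybridization-control level as a block the counts were 4, 1 and 3, and 6 by the F test, and the 1 gene called between Ind-8 and tI-3 was Hoxc8, near background. Leaving out the dimmest 25% of rows gave 5 between tI-3 and Con-3, since Hoxb3, Hoxb6 and Hoxb9, all near background, were then not tested. A percent false positive under 0.01 gave 0 between Ind-8 and Con-3 and 0 between tI-3 and Con-3. Leaving out 1 array at a time, with a lone tI-3 array assumed to vary like the other lines, gave 4 to 5 called between Ind-8 and Con-3, 7 to 14 between Ind-8 and tI-3, 2 to 7 between tI-3 and Con-3 and 9 to 13 by the F test. It gave 0 to 1, 0 to 0 and 0 to 1 by rank product, and 15 to 15 genes above background in Ind-8, 14 to 15 in Con-3 and 14 to 15 in tI-3. With the 25th percentile of all rows as background, 20, 19 and 20 genes passed in Ind-8, Con-3 and tI-3. Signs were followed for the 12 Hox genes called in at least 1 comparison and not for the other 23. Among the 12, those that reversed were of differences not called: Hoxb3 between Ind-8 and Con-3 after quantile normalization (0.0133), Hoxb13 between them without Ind-8 replicate 3 or Con-3 replicate 1 (-0.0647 to 0.0693 over all left-out arrays), and the log2 difference of Hoxd12, tI-3 against Con-3, without Con-3 replicate 3 (-0.087 to 0.138 over all left-out arrays), with a replicate block (-0.0269) and after quantile normalization (-0.063). The cause was not tested. With the replicate number as a block, 5, 15 and 10 Hox genes were called in the 3 comparisons and 12 by the F test. Whether the numbers pair the arrays was not decided. Deviations of same-numbered arrays correlated at 0.26, 0.02 and 0.37 between Ind-8 and Con-3. They correlated at 0.02 and -0.23 between Ind-8 and tI-3, and at 0.22 and 0.02 between Con-3 and tI-3. Ind-8 replicates 1 and 3 correlated best with the Con-3 array of their own number, and Ind-8 replicate 2 with Con-3 replicate 1 (0.13). The deviations of the 2 tI-3 arrays are opposite by construction, so their correlations are not separate evidence. For the named genes of the other lists, whose alternatives were chosen after seeing the data, no sign reversed.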

Other observations

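Of 17 fibroblast marker rows, 3 were higher and 1 lower in Ind-8 than in Con-3 (21.9% of all rows called), 7 higher and 1 lower in Ind-8 than in tI-3 (31.1%), and 5 higher and 5 lower in tI-3 than in Con-3 (25.4%). Col3a1, a fibrillar collagen, measured 7.91, 9.32 and 9.18 in Ind-8, 8.59, 9.37 and 9.25 in Con-3, and 6.26 and 6.51 in tI-3. Both tI-3 arrays were far below the other lines, which overlapped, and tI-3 minus Con-3 was -2.68 ± 0.37 (6.43-fold, adjusted p = 0.000621). Sparc, a matrix glycoprotein, measured 12.96, 12.85 and 12.97 in Ind-8, 12.65, 12.82 and 12.87 in Con-3, and 11.78 and 11.85 in tI-3, with tI-3 minus Con-3 at -0.97 ± 0.10 (1.96-fold, adjusted p = 0.000146). Pdgfra, a growth factor receptor of mesenchyme, was lower in tI-3 than in Con-3 by -1.04 ± 0.19 (2.06-fold, adjusted p = 0.00301). The collagen genes Col1a1 and Col5a1 were also lower in tI-3 than in Con-3, by -1.06 (adjusted p = 0.00474, not called without tI-3 replicate 1, at -0.85) and -0.78 (adjusted p = 0.00154), while Col1a2 overlapped between all 3 lines. Fn1, which encodes fibronectin, measured 13.22, 13.14 and 13.15 in Ind-8, 12.53, 12.42 and 12.47 in Con-3, and 12.71 and 12.79 in tI-3. It was highest in Ind-8 and lowest in Con-3, without overlap. The 5 rows called higher in tI-3 than in Con-3 were those of Fn1 (0.28, adjusted p = 0.0482), Pdgfrb (0.33, adjusted p = 0.0300), Twist1 (0.50, adjusted p = 0.0121), 1 of 2 rows of Prrx1 (0.50, adjusted p = 0.0321) and Thy1 (0.37, adjusted p = 0.0275), the last near background on all 8 arrays. These 5 differences were not followed through the alternatives.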
